A study of Mus musculus with 12 samples.

Results

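Fatty acid oxidation and ketogenesis genes were examined in the livers of 12 mice by RNA sequencing. The 35 members were taken by gene symbol from a table of 54532 genes, and all 35 were found, each on 1 row. By textbook location, 19 members encode mitochondrial proteins, 12 encode peroxisomal proteins, 2 (*Eci2* and *Crat*) are found in both organelles, and 2 (*Acot1*, cytosolic, and *Vnn1*, anchored at the cell surface) in neither. The mice were male C57BL/6J animals without any transgene, 3 to a group, and diets began at 5 weeks of age and lasted 26 weeks. ND-fed mice received the normal diet CE-2, control mice the high-fat diet HFD32, HYA-treated mice HFD32 with 1% HYA, and LA-treated mice HFD32 with 1% LA. LA is linoleic acid, a dietary fatty acid, and HYA (10-hydroxy-*cis*-12-octadecenoic acid) is its product in gut lactic acid bacteria, with a hydroxyl group in place of a double bond of LA.

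Beta-oxidation shortens a fatty acid from its carboxyl end in a repeated cycle of dehydrogenation, hydration, dehydrogenation and thiolysis. Mitochondria take long-chain fatty acids through the carnitine shuttle and, in the liver, turn the resulting acetyl-CoA largely into ketone bodies during fasting. Peroxisomes start on very-long-chain and branched fatty acids, which enter through ABC transporters, and export the shortened products. Many genes of both systems are known targets of the nuclear receptor PPARα in the liver.

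Values are fragments per kilobase of exon, scaled to the size of the library (FPKM), which can be compared between genes because they are divided by length. Libraries held 17169064 to 25220880 fragments on genes, and every member had at least 74 fragments in every mouse, so that all 35 passed the filter of a mean of 1 FPKM. Differences are in mean log2(FPKM + 1), tested with limma over 11083 genes, and called at a Benjamini-Hochberg adjusted p under 0.05. A difference on this scale understates the change of members with low FPKM. The p-values measure the spread between these mice. The tissue was whole liver, in which fewer cells of a type and less RNA per cell cannot be told apart. All 6 hepatocyte markers were abundant (summed FPKM of 27840 to 44000 over the 12 mice) and all 4 adipocyte markers were near 0 (summed FPKM of at most 0.422).

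The acyl-CoA thioesterase genes *Acot2*, *Acot1*, *Acot4* and *Acot3* lie next to each other in this order on the plus strand of chromosome 12. Their promoters are shown because 3 of them rose on the high-fat diet and *Acot1*, between them, did not pass the test. They are given with that of *Cpt1a*, the gate of the carnitine shuttle, and with those of the near-identical thiolase genes *Acaa1b*, which rose, and *Acaa1a*, which did not pass. RefSeq promoter sequences of the build GRCm38.p6 were matched to 29 of the 35 members, and the 250 bases before the start site are given 5′ to 3′. Capitals mark 3 motifs searched on both strands, namely the nuclear receptor core motif AGGTCA (14% of 32851 promoters of this length), the E-box CACGTG (6.02%) and the TATA box TATAAA (12.4%).
Acot2 (chr12:83987611-83987860, plus strand): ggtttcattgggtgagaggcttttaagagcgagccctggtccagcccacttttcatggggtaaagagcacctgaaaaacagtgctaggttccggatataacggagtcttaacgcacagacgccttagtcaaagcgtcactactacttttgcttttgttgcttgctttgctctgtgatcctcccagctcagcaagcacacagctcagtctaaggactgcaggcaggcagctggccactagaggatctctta
Acot1 (chr12:84009252-84009501, plus strand): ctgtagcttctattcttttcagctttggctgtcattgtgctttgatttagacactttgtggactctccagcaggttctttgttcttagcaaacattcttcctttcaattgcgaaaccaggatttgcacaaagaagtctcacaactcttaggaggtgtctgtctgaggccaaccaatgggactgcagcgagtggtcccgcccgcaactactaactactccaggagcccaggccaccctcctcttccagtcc
Acot4 (chr12:84038129-84038378, plus strand): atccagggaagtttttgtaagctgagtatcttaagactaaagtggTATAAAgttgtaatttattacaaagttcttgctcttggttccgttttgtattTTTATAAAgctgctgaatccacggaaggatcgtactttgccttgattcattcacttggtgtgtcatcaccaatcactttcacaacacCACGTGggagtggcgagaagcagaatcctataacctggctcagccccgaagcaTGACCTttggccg
Acot3 (chr12:84051894-84052143, plus strand): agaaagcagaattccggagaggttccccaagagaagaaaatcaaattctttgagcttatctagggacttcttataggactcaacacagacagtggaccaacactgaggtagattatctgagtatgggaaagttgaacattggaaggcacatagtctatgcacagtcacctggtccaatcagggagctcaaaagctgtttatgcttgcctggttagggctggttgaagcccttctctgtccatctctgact
Cpt1a (chr19:3323051-3323300, plus strand): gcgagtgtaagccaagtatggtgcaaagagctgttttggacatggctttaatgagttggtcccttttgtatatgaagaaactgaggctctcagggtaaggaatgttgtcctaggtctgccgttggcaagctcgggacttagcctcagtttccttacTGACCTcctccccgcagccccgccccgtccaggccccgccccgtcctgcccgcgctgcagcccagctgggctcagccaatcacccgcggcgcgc
Acaa1b (chr9:119157094-119157343, minus strand): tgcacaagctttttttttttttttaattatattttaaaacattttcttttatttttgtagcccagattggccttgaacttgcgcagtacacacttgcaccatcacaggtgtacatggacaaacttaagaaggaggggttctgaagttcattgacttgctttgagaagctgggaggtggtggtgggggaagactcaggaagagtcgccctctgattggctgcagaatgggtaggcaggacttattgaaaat
Acaa1a (chr9:119341044-119341293, plus strand): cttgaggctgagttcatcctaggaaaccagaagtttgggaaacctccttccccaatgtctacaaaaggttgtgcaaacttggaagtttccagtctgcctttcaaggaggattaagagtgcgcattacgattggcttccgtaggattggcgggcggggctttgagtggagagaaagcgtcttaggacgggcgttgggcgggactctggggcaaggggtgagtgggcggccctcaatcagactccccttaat

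The *Acot4* window held all 3 motifs, with the core motif at bases 13 to 8 before the start, the E-box at bases 66 to 61, and 3 TATA box matches of which a pair overlapped on opposite strands. *Cpt1a* held a core motif at bases 94 to 89. Of the 29 members with a promoter, 4 (*Acadm*, *Acadvl*, *Acot4* and *Cpt1a*) held the core motif, and 1, *Acot4*, held the E-box and the TATA box. The full direct repeat AGGTCANAGGTCA was in 0 of the 29 windows and in 0.0335% of all promoters. These matches describe letters in a short window only.

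The first comparison asked how the high-fat diet changed these genes. Relative to ND-fed mice, 21 of the 35 members rose in control mice, 2 fell slightly (*Acaa2* and *Etfa*) and 12 did not pass the test. Among all genes tested, 16.2% rose and 19.1% fell. The median difference was 0.22 for the 19 mitochondrial members and 0.28 for the 12 peroxisomal members, beside −0.043 for all genes, of which 43% were above 0. In the mitochondrial list 12 members rose and 2 fell, and in the peroxisomal list 7 rose and 0 fell. By more than 1 on the log2 scale, 9 members rose, namely *Acot2*, *Pdk4* and *Cpt1a* of the mitochondria, *Acot3*, *Abcd2*, *Pex11a* and *Acot4* of the peroxisomes, and *Crat* and *Vnn1*. Among all genes, 2.25% did so.

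**Figure D1:**
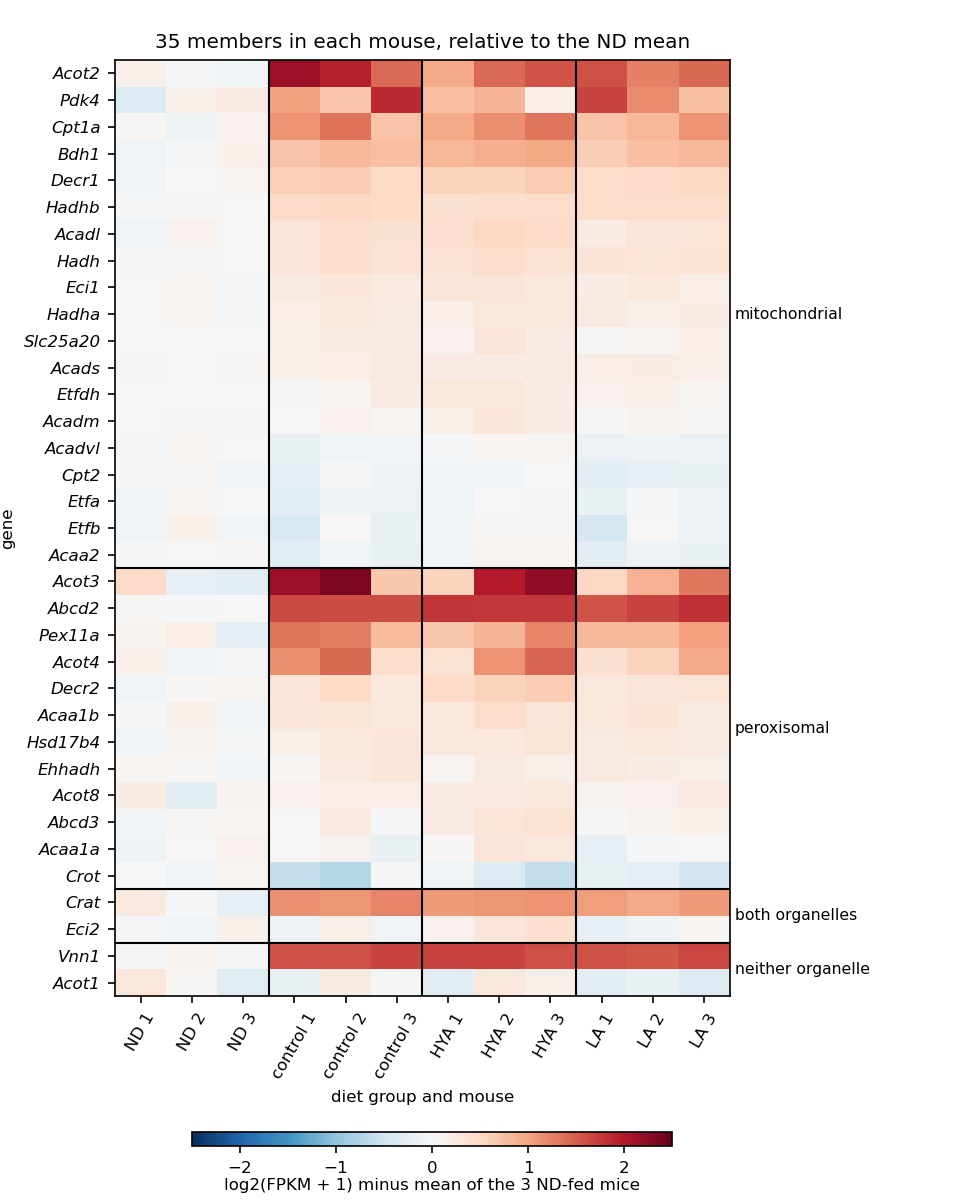
Each row is 1 of the 35 members and each column 1 of the 12 mice, and the colour is log2(FPKM + 1) minus the mean of the 3 ND-fed mice. Rows are ordered within each location by the difference between control and ND-fed mice. The upper rows of the mitochondrial and peroxisomal blocks are red in the 9 mice on the high-fat diets, while most other rows stay pale. An exception is *Pdk4* in HYA mouse 3 (0.16), which is below ND mouse 3 (0.197).

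*Acot2* (GRCm38 chr12:83987861-83993873, plus strand), a mitochondrial thioesterase that releases free fatty acids from long-chain acyl-CoA, showed the largest difference on the log2(FPKM + 1) scale. It stood at 2.75, 2.38 and 2.18 FPKM in ND-fed mice, 14.04, 11.9 and 8.09 in control mice, 5.61, 8.16 and 9.14 in HYA-treated mice and 9.38, 7.15 and 8.29 in LA-treated mice. The 3 ND-fed mice were below all 9 mice on the high-fat diets, and the mean of control mice was 4.66 times that of ND-fed mice (1.82 ± 0.19, adjusted p = 6.44e-05). *Acot3* (chr12:84052144-84060402, plus strand), which encodes a peroxisomal thioesterase, stood at 2.78, 1.36 and 1.28 FPKM in ND-fed mice, 11.1, 12.9 and 3.33 in control mice, 3.02, 9.82 and 11.7 in HYA-treated mice and 2.91, 3.96 and 5.85 in LA-treated mice. Its mean in control mice was 5.04 times that in ND-fed mice, a larger ratio of means than that of *Acot2*. Control mice did not overlap with ND-fed mice (1.72 ± 0.50, adjusted p = 0.0208), although control mouse 3 was close to ND mouse 1, and the adjusted p was 0.0647 without ND mouse 2, 0.0639 without ND mouse 3, 0.0778 without control mouse 1 and 0.0711 without control mouse 2. *Acot4*, a peroxisomal thioesterase acting on dicarboxylic acyl-CoA, also rose, with means of 8.805 ± 0.768 FPKM in ND-fed and 19.5 ± 6.62 in control mice (SD, n = 3; 1.01 ± 0.29, adjusted p = 0.0188). Its adjusted p was 0.0568 without ND mouse 2, 0.0653 without control mouse 1 and 0.0661 without control mouse 2.

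*Acot1* (chr12:84009490-84018371, plus strand), which lies between *Acot2* and *Acot4* and encodes the cytosolic enzyme, did not pass the test. Its means were 7.37 ± 1.68 FPKM in ND-fed mice and 7.44 ± 1.203 in control mice (SD, n = 3), and the 95% interval of the difference was −0.35 to 0.39. The transcripts of these genes are alike. Of all windows of 150 bases, the read length, in protein-coding transcripts, 12.2% in *Acot1* and 10.2% in *Acot2* also occurred in another gene of the cluster, against 1.56% in *Acot3* and 0% in *Acot4*. How the authors' counting split such reads is uncertain, and it touches *Acot1* and *Acot2* most. *Acot8* (chr2:164792765-164804882, minus strand), a further peroxisomal thioesterase encoded on another chromosome, had means of 7.16 ± 1.24 and 7.98 ± 0.236 FPKM and did not pass the test (0.15 ± 0.10, adjusted p = 0.253).

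*Abcd2* (chr15:91145871-91191799, minus strand), a peroxisomal ABC transporter of very-long-chain acyl-CoA, was the most sharply separated peroxisomal member. It stood at 2.805, 2.64 and 2.72 FPKM in ND-fed mice, 10.7, 10.6 and 10.6 in control mice, 11.8, 11.7 and 11.7 in HYA-treated mice and 10.1, 10.9 and 12.1 in LA-treated mice. All ND-fed mice were below 3 FPKM and all mice on the high-fat diets above 10 FPKM (1.64 ± 0.06, adjusted p = 5.59e-08 for control against ND). *Abcd3*, the far more abundant transporter of the same family, had means of 109 ± 4.95 FPKM in ND-fed and 114 ± 13.2 in control mice and did not pass the test (0.063 ± 0.088, adjusted p = 0.613). *Vnn1* (chr10:23894688-23905343, plus strand), the pantetheinase that recycles pantothenate, the vitamin from which coenzyme A is made, followed the pattern of *Abcd2*. It stood at 21.9, 24.2 and 22.3 FPKM in ND-fed mice, 70.5, 71.1 and 75.7 in control mice, 75.5, 75.3 and 71.8 in HYA-treated mice and 70.4, 69 and 74.7 in LA-treated mice. The mean ratio of control to ND-fed mice was 3.18 (1.63 ± 0.056, adjusted p = 3.63e-08), and the 3 high-fat groups overlapped one another.

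*Pdk4* (chr6:5483351-5496309, minus strand), the kinase that shuts off pyruvate dehydrogenase when fat is burned, stood at 2.35, 3.69 and 3.87 FPKM in ND-fed mice, 7.47, 5.88 and 14.4 in control mice, 6.16, 6.68 and 3.74 in HYA-treated mice and 12.7, 8.64 and 6.197 in LA-treated mice. Control mice were above ND-fed mice (1.19 ± 0.32, adjusted p = 0.015), but control mouse 3 stood at 14.4 FPKM, above the other control mice at 5.88 and 7.47, and without ND mouse 1 the difference was 1.01 with an adjusted p of 0.0546. *Crat* (chr2:30400471-30415813, minus strand), carnitine acetyltransferase, which buffers acetyl-CoA as acetylcarnitine, stood at 14, 11.4 and 10.02 FPKM in ND-fed mice, 27.2, 26.4 and 28.8 in control mice, 25.4, 26.4 and 26.8 in HYA-treated mice and 25.3, 23.4 and 25.6 in LA-treated mice. No mouse on a high-fat diet fell within the range of the ND-fed mice, and the mean rose 2.33-fold in control mice (1.16 ± 0.094, adjusted p = 1.11e-05). *Dolpp1* overlaps *Crat* on the opposite strand at a mean of 5.55 FPKM, which bears on *Crat* if strand was not used in counting. The same holds for other members, among them *Acaa1a*, overlapped by *Myd88* (7.25 FPKM), and *Acot8*, overlapped by *Snx21* (2.19 FPKM).

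In the carnitine shuttle, *Cpt1a* (chr19:3323301-3385732, plus strand), the outer membrane enzyme that controls entry, rose 2.14-fold (1.07 ± 0.16, adjusted p = 0.000596), from 83.6 ± 7.096 FPKM in ND-fed mice to 179 ± 38.6 in control mice (SD, n = 3). *Slc25a20*, the carrier across the inner membrane, rose by far less (0.18 ± 0.061, adjusted p = 0.0433), and its call was lost without any 1 of the ND-fed or control mice (adjusted p of 0.0704 to 0.107). *Cpt2*, the inner membrane enzyme that hands the acyl group back to coenzyme A, did not pass the test (−0.14 ± 0.058, adjusted p = 0.0875), except without control mouse 2 (−0.181, adjusted p = 0.0431). Among the exporters, *Crot*, the peroxisomal carnitine octanoyltransferase, did not pass (−0.46 ± 0.17, adjusted p = 0.0607) although its mean was 102 FPKM in control against 137 in ND-fed mice. Without control mouse 3 the difference was −0.658, with an adjusted p of 0.00599, while the adjusted p was 0.0499 without HYA mouse 3 and 0.043 with limma-voom on whole fragments recovered from FPKM.

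The enzymes of the mitochondrial spiral rose by small amounts or not at all. Of the 4 acyl-CoA dehydrogenases, *Acadl* (long-chain; 0.39 ± 0.068, adjusted p = 0.00144) and *Acads* (short-chain; 0.18 ± 0.045, adjusted p = 0.0116) rose, while *Acadm* (medium-chain; 0.052 ± 0.057, adjusted p = 0.512) and *Acadvl* (very-long-chain; −0.13 ± 0.05, adjusted p = 0.0706) did not pass the test. *Hadha* and *Hadhb*, the alpha and beta subunits of the trifunctional protein, rose by 0.22 and 0.50. *Hadh*, the dehydrogenase for shorter chains, rose by 0.38. *Eci1* and *Decr1*, the isomerase and reductase that deal with double bonds in unsaturated fatty acids, rose by 0.26 and 0.57.

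*Acaa2*, the last thiolase of the spiral, was the most abundant mitochondrial member and fell. It stood at 567, 576 and 591 FPKM in ND-fed mice, 469.9, 535 and 511 in control mice, 546, 603 and 594 in HYA-treated mice and 483, 523 and 506 in LA-treated mice. All 3 control mice were below all 3 ND-fed mice, by 0.874 in the ratio of means (−0.20 ± 0.064, adjusted p = 0.0347). Of the electron transfer chain that carries the electrons of the dehydrogenases to ubiquinone, *Etfa* fell (−0.18 ± 0.059, adjusted p = 0.036), while *Etfb* (−0.19 ± 0.12, adjusted p = 0.256) and *Etfdh* (0.094 ± 0.056, adjusted p = 0.22) did not pass. The fall of *Acaa2* was lost without any 1 of ND mice 1, 2 and 3 and control mice 1 and 3 (adjusted p of 0.0563 to 0.118), and that of *Etfa* without ND mouse 2 or 3 or control mouse 1 or 3 (0.0566 to 0.127). In TPM, a unit like FPKM that scales every mouse to the same sum, the differences were 0.041 for *Acaa2* and 0.055 for *Etfa*, on the other side of 0. With TPM the median difference of all genes moved from −0.043 to 0.179. Measured from that median, the mitochondrial and peroxisomal members stood at 0.276 and 0.335 with TPM and at 0.261 and 0.32 with FPKM.

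The peroxisomal spiral rose by similarly small amounts. *Acaa1b*, a peroxisomal thiolase and the most abundant of all 35 members, stood at 1108, 1264 and 1069 FPKM in ND-fed mice, 1408, 1458 and 1397 in control mice, 1373, 1573 and 1429 in HYA-treated mice and 1364, 1469 and 1339 in LA-treated mice. All ND-fed mice were below all mice on the high-fat diets (0.31 ± 0.077, adjusted p = 0.00968 for control against ND). Its near-identical relative *Acaa1a* did not pass (−0.025 ± 0.10, adjusted p = 0.868), with 13.3% of the read-length windows of *Acaa1b* and 8.59% of those of *Acaa1a* found in the other gene. *Hsd17b4*, the D-specific bifunctional protein for branched and very-long chains, stood at 155, 173 and 159 FPKM in ND-fed mice, 180.2, 195 and 201 in control mice, 196, 195 and 205 in HYA-treated mice and 191, 195 and 189 in LA-treated mice, and rose (0.24 ± 0.059, adjusted p = 0.00919). *Ehhadh*, the L-specific bifunctional protein, did not pass (0.20 ± 0.073, adjusted p = 0.058), but passed without control mouse 1 (0.272, adjusted p = 0.0122), with TPM (0.433, adjusted p = 0.000454) and with a covariate from the clock genes *Dbp* and *Arntl* (0.218, adjusted p = 0.0339). *Decr2*, the peroxisomal dienoyl-CoA reductase, rose by 0.36 (adjusted p = 0.00279), as *Decr1* did in the mitochondria. *Eci2*, the isomerase of both organelles, did not pass (−0.027 ± 0.11, adjusted p = 0.868). *Pex11a*, which acts in the elongation and division of peroxisomes, rose 2.24-fold (1.13 ± 0.17, adjusted p = 0.000566).

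**Figure D2:**
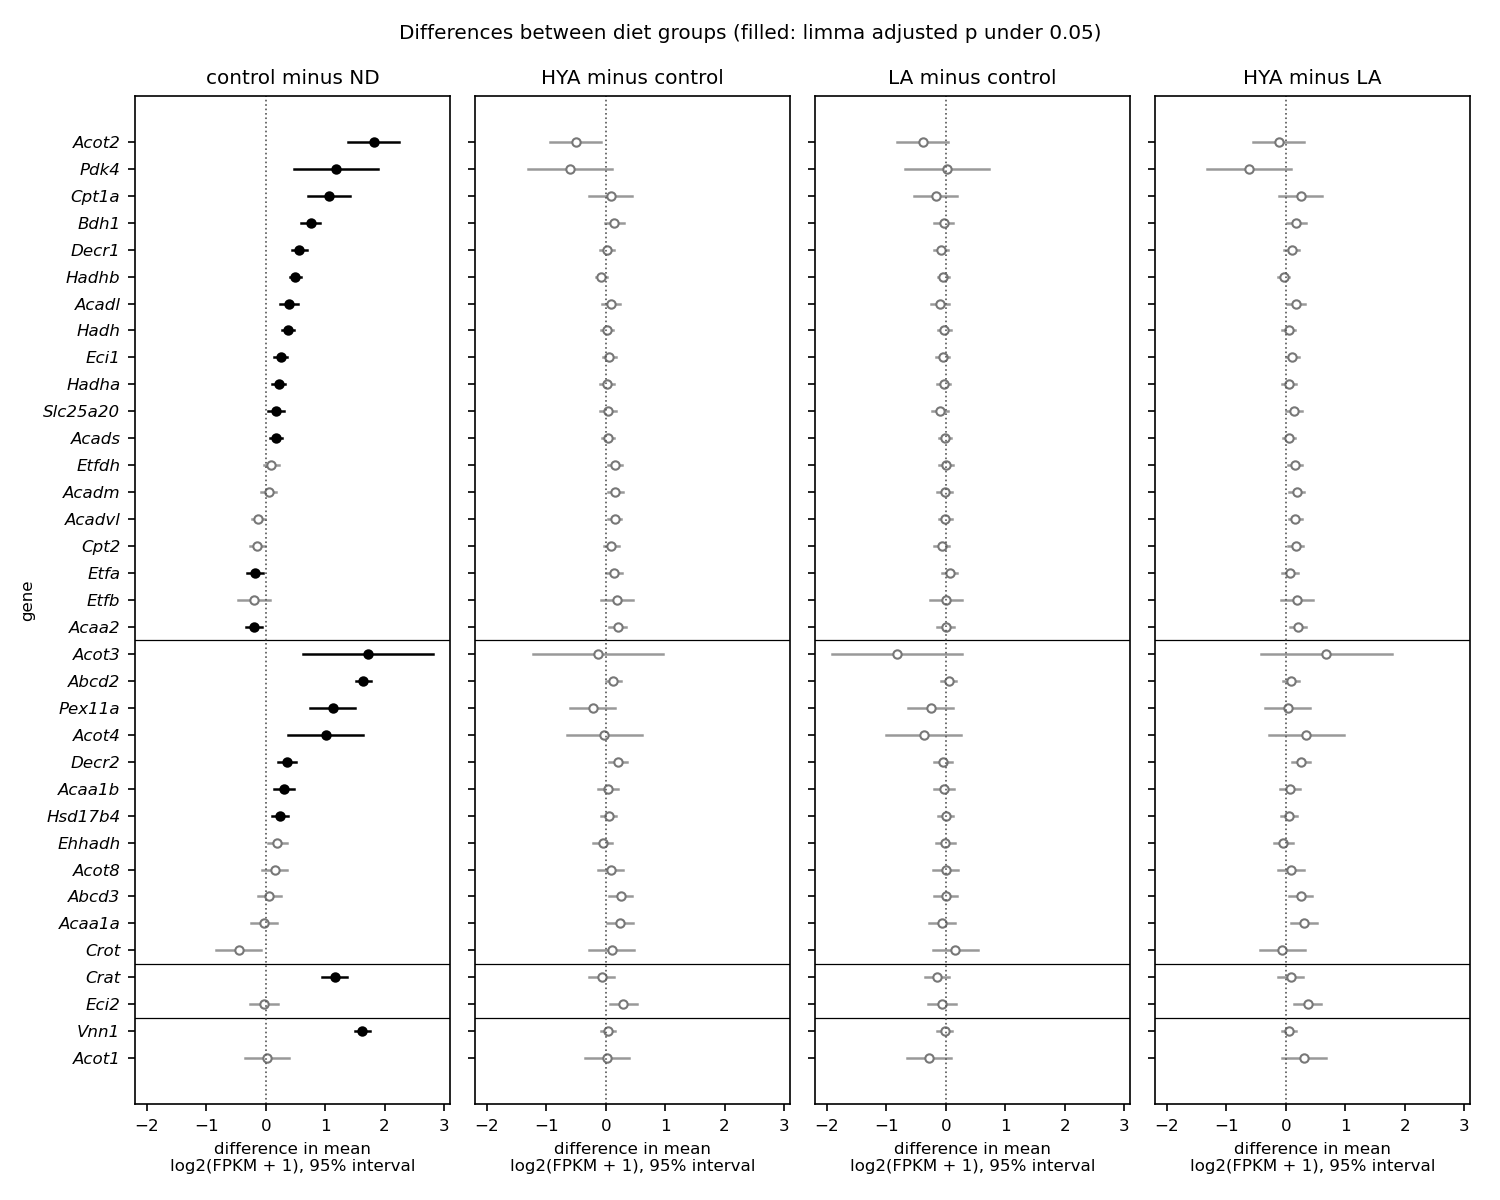
Each row is a member and each panel a comparison, with the difference in mean log2(FPKM + 1) as a point and its 95% limma interval as a line (3 mice per group). Filled points have an adjusted p under 0.05, which are 23 of 35 in the first panel and 0 in the other panels.

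Ketogenesis is represented among the members by *Bdh1*, the mitochondrial enzyme that reduces acetoacetate to beta-hydroxybutyrate. *Bdh1* rose 1.701-fold, from 60.3 ± 4.58 FPKM in ND-fed mice to 103 ± 3.701 in control mice (SD, n = 3; 0.76 ± 0.073, adjusted p = 3.35e-05), and its ND-fed mice did not overlap with any other group.

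Summed over each organelle, the 19 mitochondrial members reached 1777 to 1836 FPKM in ND-fed mice, 1907 to 2091 in control mice, 2048 to 2201 in HYA-treated mice and 1870 to 1971 in LA-treated mice. The 12 peroxisomal members reached 1843 to 2049, 2258 to 2382, 2267 to 2524 and 2209 to 2345 FPKM in the same order, most of it *Acaa1b*. For both sums the ND-fed mice lay below every other mouse, and the HYA-treated mice overlapped with control mice. Other cell markers moved with diet too. Summed FPKM of the 6 hepatocyte markers was 42300 to 44000 in ND-fed and 27840 to 32020 in control mice, with 5 of the 6 lower in control mice at an adjusted p under 0.05. The 6 stellate cell markers summed to 20.02 to 26 FPKM in ND-fed and 50.8 to 70.9 in control mice, and the 6 macrophage markers to 97.7 to 154 and 165 to 169. Of the 6 stellate markers, all above 0, 3 passed the test. Of the 5 macrophage markers tested, 3 passed as higher and 1 was below 0. The part of these shifts in the members' differences was not tested.

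**Figure D3:**
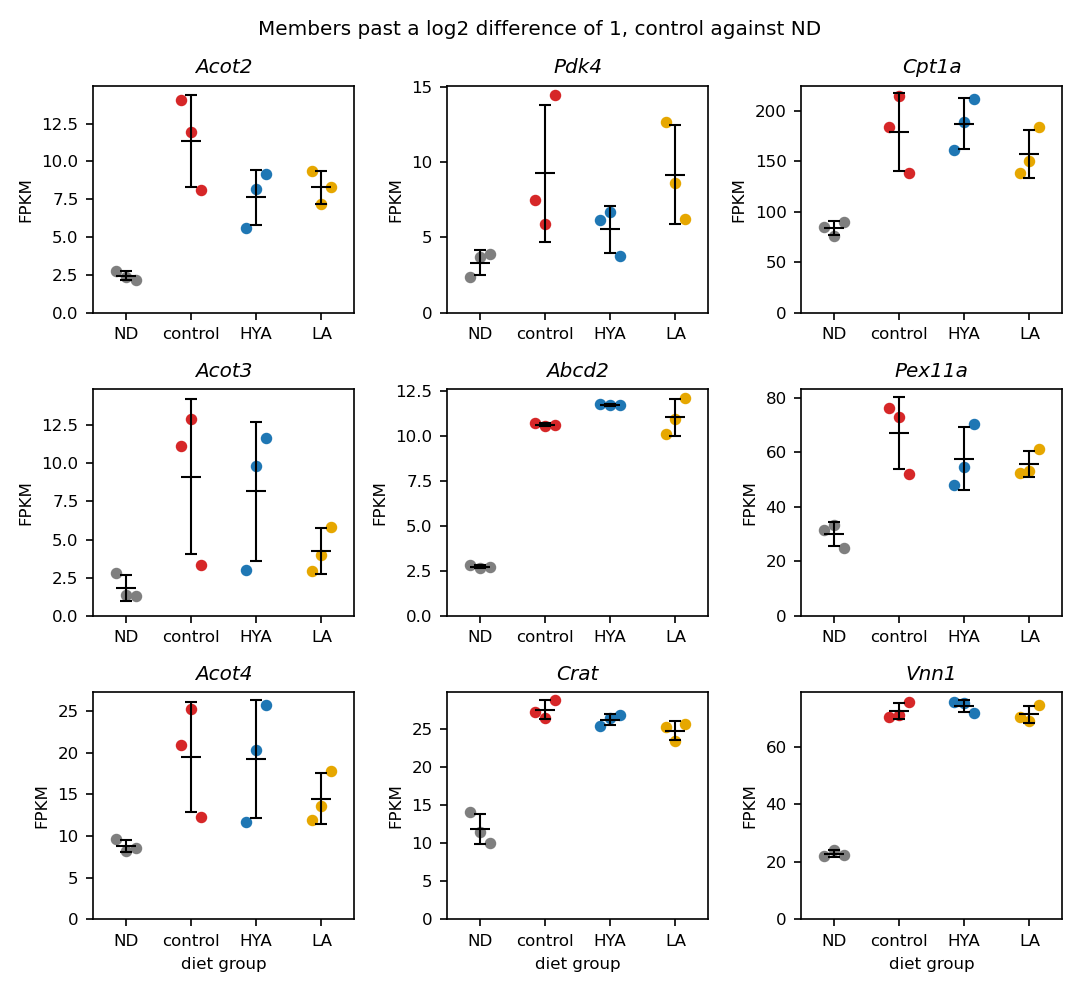
Points are the FPKM of single mice for the 9 members that passed the test and rose by more than 1 on the log2 scale in control against ND-fed mice. The horizontal mark and bar are the mean and SD of 3 mice. The high-fat groups overlap in all 9 panels except for *Abcd2*, where the lowest HYA-treated mouse (11.7 FPKM) is above the highest control mouse (10.7 FPKM), and *Crat*, where the highest LA-treated mouse (25.6 FPKM) is below the lowest control mouse (26.4 FPKM).

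The second comparison asked whether HYA in the high-fat diet changed these genes. None of the 35 members passed the test between HYA-treated and control mice. Among all genes, 1.57% rose and 1.23% fell, shares so low that 0 of 35 does not set the members apart. These shares, 174 and 136 genes, were unstable. They were 0 and 0 genes with only the 2 groups compared or without HYA mouse 2. Without control mouse 1 they were 17 and 11, and without control mouse 2 377 and 274. At an unadjusted p under 0.05 there were 10 members of 35, against 18.5% of all genes. The median difference was 0.081 for mitochondrial members (16 of 19 above 0) and 0.067 for peroxisomal members (8 of 12 above 0), beside 0.019 for all genes, of which 55.6% were above 0. Groups did not overlap for 7 members that were higher in HYA-treated mice (*Acadm*, *Acadvl*, *Acaa2*, *Etfa*, *Bdh1*, *Abcd2* and *Acot8*) and for 1 that was lower (*Hadhb*), and this held for 12.7% and 8.87% of all genes.

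In the mitochondria the lowest p values were those of *Acaa2*, *Acadvl* and *Acadm*. *Acaa2* (values given above) stood between 546 and 603 FPKM in HYA-treated mice, all above the highest control mouse at 535, with a difference of 0.20 ± 0.064, adjusted p = 0.117. *Acadvl* stood at 165, 177 and 173 FPKM in ND-fed mice, 151, 160.2 and 162 in control mice, 168, 177 and 179 in HYA-treated mice and 156, 157 and 156 in LA-treated mice. HYA-treated mice were above control and LA-treated mice and overlapped with ND-fed mice (0.15 ± 0.05, adjusted p = 0.133). *Acadm* stood at 94.7, 96.8 and 93.2 FPKM in ND-fed mice, 94.5, 102 and 98.9 in control mice, 104, 117 and 110.1 in HYA-treated mice and 92.3, 102 and 97.5 in LA-treated mice. All HYA-treated mice exceeded all mice of the other 3 groups for *Acadm* (0.16 ± 0.057, adjusted p = 0.155).

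In the peroxisomes the lowest p values were those of *Decr2*, *Abcd3* and *Acaa1a*. *Decr2* stood at 94.1, 102 and 106 FPKM in ND-fed mice, 126, 142 and 122 in control mice, 141, 151 and 158 in HYA-treated mice and 121, 126 and 128 in LA-treated mice. The lowest HYA-treated mouse was just under the highest control mouse (0.21 ± 0.071, adjusted p = 0.146). *Abcd3* stood at 103, 111 and 112 FPKM in ND-fed mice, 108, 129 and 104 in control mice, 125, 138 and 141 in HYA-treated mice and 104, 115 and 121 in LA-treated mice (0.25 ± 0.088, adjusted p = 0.157). *Acaa1a* stood at 52.8, 57.9 and 61.96 FPKM in ND-fed mice, 57.8, 61.4 and 50.6 in control mice, 58.7, 72.2 and 69.8 in HYA-treated mice and 49.6, 55.3 and 56.7 in LA-treated mice, with HYA mouse 1 inside the control range (0.24 ± 0.10, adjusted p = 0.231). Without control mouse 2, *Decr2* (0.273, adjusted p = 0.0465) and *Abcd3* (0.341, adjusted p = 0.0334) passed the test. *Eci2* had the largest difference above 0 of all 35 members (0.30 ± 0.11, adjusted p = 0.157).

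The members that had risen most on the high-fat diet did not pass in either direction. *Acot2* (−0.51 ± 0.19, adjusted p = 0.187) and *Pdk4* (−0.60 ± 0.32, adjusted p = 0.352) had the largest differences below 0. The 95% interval of *Acot2*, which is not adjusted for the number of genes, lay below 0 (−0.93 to −0.083), and that of *Pdk4* held 0 (−1.30 to 0.11). *Cpt1a* (−0.28 to 0.44), *Abcd2* (−0.0023 to 0.26), *Vnn1* (−0.088 to 0.16) and *Crat* (−0.27 to 0.14) had 95% intervals that held 0. Over the 35 members, 33 intervals lay within 1 on the log2 scale in either direction and 29 within 0.5, and the exceptions to the first were *Pdk4* and *Acot3*. The bounds of an interval lay a median of 0.157 from the difference. With TPM the median of all genes moved from 0.019 to −0.101 and the members' medians to −0.044 and −0.053, which is 0.0566 and 0.0479 above that of all genes, against 0.0619 and 0.0478 with FPKM, and 12 rather than 27 of the 35 members were above 0. Summed stellate markers were 37.7 to 46.9 FPKM and summed macrophage markers 118 to 161 FPKM in HYA-treated mice. Summed hepatocyte markers were 36470 to 38290 FPKM, and none of the 3 sums overlapped with control mice. Of the 6 stellate markers, 4 were below 0, 2 of them past the test, and 2 were above 0. The part of these shifts in the members' values was not tested.

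The third comparison, of LA-treated with control mice, asked whether the parent fatty acid acted on the same genes. No member passed, none reached an unadjusted p under 0.05, and the adjusted p was at least 0.999 for all 35. Of all genes 0% passed and 2.65% reached an unadjusted p under 0.05. The median difference was −0.035 in mitochondrial members (4 of 19 above 0) and −0.019 in peroxisomal members (2 of 12 above 0; 0.0102 without control mouse 2), beside 0.0031 for all genes, of which 51.5% were above 0. LA-treated and control mice did not overlap for *Hadhb* and *Crat*, both lower in LA-treated mice, and for 0 members higher, which compares with 3.61% and 3.94% of all genes. Intervals lay within 1 on the log2 scale for 33 members, all but *Acot3* (−1.92 to 0.28) and *Acot4* (−1.0001 to 0.26).

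HYA and LA differ by the hydroxyl group and a double bond, and both were given at 1% for 26 weeks, so the 2 groups were compared directly, as the only pair of compounds. No member passed between HYA-treated and LA-treated mice, beside 0.235% of all genes higher and 0.253% lower with HYA. At such shares 0 of 35 does not set the members apart. An unadjusted p under 0.05 was reached by 11 members of 35 and by 17.2% of all genes. The median difference was 0.13 for mitochondrial and 0.084 for peroxisomal members, beside 0.014 for all genes. Above 0 were 30 of 35 members and 54.1% of all genes. The lowest adjusted p values were those of *Decr2* (0.26 ± 0.071, adjusted p = 0.105) and *Eci2* (0.37 ± 0.11, adjusted p = 0.114). Groups did not overlap for 15 members higher with HYA and 0 lower, against 14.8% and 10.4% of all genes. The intervals of the 11 members with an unadjusted p under 0.05 lay above 0, that of *Decr2* at 0.10 to 0.41, and those of the other members held 0. Intervals lay within 1 on the log2 scale for 33 members, all but *Pdk4* (−1.33 to 0.084) and *Acot3* (−0.41 to 1.78), and within 0.5 for 27. With TPM 17 of 35 members were above 0, and the medians were 0.0155 and −0.025, beside −0.0997 for all genes.

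Mice of 1 group differed more in some members than in others. *Acot3* ranged from 3.33 to 12.9 FPKM among control mice, from 3.02 to 11.7 among HYA-treated mice and from 2.91 to 5.85 among LA-treated mice. These mice also differed in genes of the daily clock. *Dbp*, a clock-controlled transcription factor, stood at 14.97, 16.2 and 23.3 FPKM in ND-fed mice, 50.02, 53.5 and 4.53 in control mice, 19.1, 45.5 and 56.97 in HYA-treated mice and 9.45, 20.04 and 41.4 in LA-treated mice. The core clock gene *Arntl* ran opposite to *Dbp* in each high-fat group, at 0.2102, 0.174 and 3.23 FPKM in control mice. In ND-fed mice, at 1.98, 1.73 and 2.04 FPKM, *Arntl* did not run opposite to *Dbp*.

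In each high-fat group the mouse with the lowest *Dbp* was control mouse 3, HYA mouse 1 and LA mouse 1. These same 3 mice were the lowest of their groups for 7 of the 35 members, namely *Cpt1a*, *Decr2*, *Acaa1a*, *Abcd3*, *Pex11a*, *Acot3* and *Acot4*, and the highest for 1, *Crot*. Of all genes 9.08% were lowest and 9.52% highest in these mice. *Dbp* and the following genes were singled out after their values were seen. *Acot4* stood at 9.67, 8.21 and 8.54 FPKM in ND-fed mice, 20.97, 25.3 and 12.3 in control mice, 11.7, 20.4 and 25.8 in HYA-treated mice and 11.98, 13.6 and 17.9 in LA-treated mice. *Cpt1a* stood at 85.03, 75.9 and 89.9 FPKM in ND-fed mice, 183, 215 and 138 in control mice, 161, 189 and 211 in HYA-treated mice and 138, 149.999 and 184 in LA-treated mice. *Pex11a* stood at 31.5, 33.4 and 25.02 FPKM in ND-fed mice, 76.4, 73.2 and 52.1 in control mice, 47.9, 54.8 and 70.3 in HYA-treated mice and 52.6, 53.2 and 61.4 in LA-treated mice. *Acot4* and *Acot3* were below 14 FPKM and 4 FPKM in all high-fat mice with *Dbp* at or below 20.04 FPKM and above 17 and 5 FPKM in the others. All 4 of *Acot3*, *Acot4*, *Cpt1a* and *Pex11a* were higher in every high-fat mouse than in every ND-fed mouse. *Crot*, which ran the other way, stood at 137, 131 and 143 FPKM in ND-fed mice, 90.2, 82.5 and 132 in control mice, 127, 108 and 88.5 in HYA-treated mice and 121, 117 and 97.2 in LA-treated mice.

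**Figure D4:**
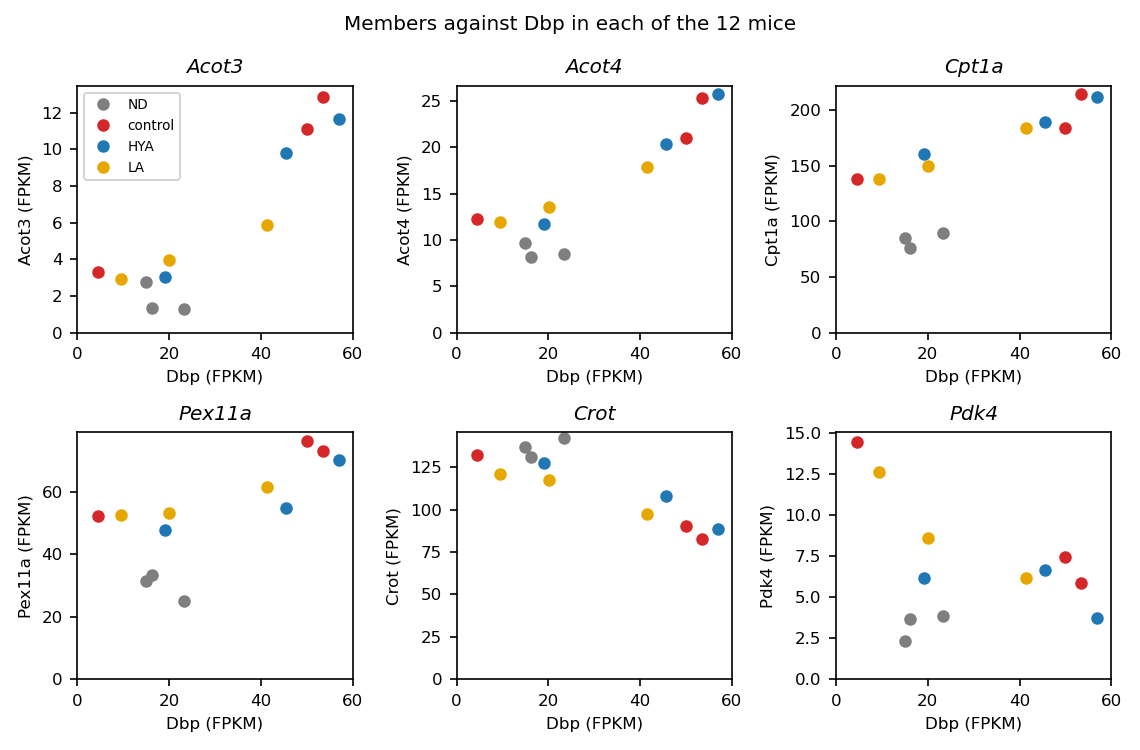
Each point is 1 mouse, with the FPKM of *Dbp* on the horizontal axis and the FPKM of a member on the vertical axis, coloured by diet. In *Cpt1a* and *Pex11a* the ND-fed mice lie below high-fat mice of like *Dbp*, and in *Crot* the 4 high-fat mice with the lowest *Dbp* lie at 117 to 132 FPKM and the other 5 at 82.5 to 108 FPKM.

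The collection time of each mouse is not given in the sources used here. With log2(*Dbp* + 1) minus log2(*Arntl* + 1) as a covariate, chosen after seeing the data, the difference between control and ND-fed mice was 0.945 for *Cpt1a*, 1.37 for *Acot3*, 0.802 for *Acot4* and 1.02 for *Pex11a*, all with an adjusted p of at most 0.0031, and that of *Crot* passed (−0.325, adjusted p = 0.00512). Between HYA-treated and control mice 1 member passed with the covariate, *Etfdh*, the ubiquinone oxidoreductase of the electron transfer chain (0.173, adjusted p = 0.0475). Without the covariate the difference of *Etfdh* was 0.16 ± 0.056, adjusted p = 0.163.

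The other genes of these pathways give the members their setting. Of 17 tested mitochondrial oxidation and ketone genes outside the members, 8 rose and 6 fell on the high-fat diet. *Acacb*, whose product malonyl-CoA inhibits CPT1, rose (1.30 ± 0.13, adjusted p = 3.78e-05), as did *Acot9* (0.99726 ± 0.13, adjusted p = 0.000217), and *Acadsb*, the short/branched-chain acyl-CoA dehydrogenase, fell (−0.96 ± 0.088, adjusted p = 2.34e-05). Of 24 other peroxisomal genes tested, 2 rose and 11 fell, unlike the 7 and 0 of the 12 peroxisomal members. *Ech1*, a dienoyl-CoA isomerase, rose (0.47 ± 0.057, adjusted p = 0.000147), while catalase, *Cat*, which removes the hydrogen peroxide of peroxisomal oxidation (−0.59 ± 0.07, adjusted p = 0.000123), and *Pecr*, the trans-2-enoyl-CoA reductase (−0.98 ± 0.12, adjusted p = 0.000153), fell. With TPM these counts became 9 higher and 2 lower, and 8 higher and 10 lower, and without ND mouse 2 the count of other mitochondrial genes that rose was 5. Among all 13588 genes tested with TPM, 4417 were higher and 775 lower. Since the members were chosen with results known, this contrast of the lists is a description.

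Of 15 peroxisome assembly genes, 0 rose and 3 fell (*Pex13*, *Pex11g* and *Pex26*, by 0.21 to 0.33 on the log2 scale), with 5 higher and 0 lower under TPM. The count that fell was 0 to 4 with single mice left out, 0 without ND mouse 2 or control mouse 1, and the 3 genes lost their calls in 6, 7 and 7 of 21 alternatives. Of 17 PPARα targets outside beta-oxidation, 9 rose and 1 fell, with the lowest p values in the lipid droplet genes *Cidec* (3.19 ± 0.17, adjusted p = 6.32e-07) and *Plin2* (1.32 ± 0.06, adjusted p = 2.61e-07) and the fatty acid transporter *Cd36* (1.69 ± 0.087, adjusted p = 6.32e-07). Of 13 regulators, 0 rose and 2 fell, *Hnf4a* (−0.54 ± 0.081, adjusted p = 0.000531) and *Sirt1* (−0.30 ± 0.10, adjusted p = 0.0336), and with TPM 3 rose and 1 fell. Beside the TPM counts of both lists stand 4417 higher and 775 lower of all 13588 genes tested with TPM. *Sirt1* lost its call in 9 of 21 alternatives, among them without any 1 of the ND-fed or control mice. *Ppara* itself did not pass, with means of 38.2 ± 4.18 and 52.3 ± 13.3 FPKM (0.42 ± 0.19, adjusted p = 0.112).

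In HYA-treated against control mice, 3 of the 24 other peroxisomal genes rose and 0 fell. These were *Cat* (0.34 ± 0.07, adjusted p = 0.0357), *Ephx2*, the soluble epoxide hydrolase (0.33 ± 0.071, adjusted p = 0.0412), and *Slc27a2*, the very-long-chain acyl-CoA synthetase (0.37 ± 0.087, adjusted p = 0.0487). Among other mitochondrial genes 3 of 17 rose and 0 fell, namely *Acsl1*, the main long-chain acyl-CoA synthetase (0.45 ± 0.10, adjusted p = 0.0407), *Hsd17b10* (0.37 ± 0.083, adjusted p = 0.0443) and *Pccb*, a subunit of propionyl-CoA carboxylase (0.22 ± 0.051, adjusted p = 0.0487). The count of other peroxisomal genes ranged from 0 to 9 and that of other mitochondrial genes from 0 to 4 when single mice were left out, the highest without control mouse 2, and with TPM they were 1 and 0. Among all 13588 genes tested with TPM, 88 rose and 408 fell. Each of the 6 genes lost its call in 12 to 15 of 21 alternatives. The PPARα targets gave 0 higher and 1 lower (*Cyp4a31*; −0.35 ± 0.081, adjusted p = 0.0487, lost in 18 of 21 alternatives), and the assembly genes and regulators 0 in each direction. None of the genes of these lists passed between LA-treated and control mice, nor between HYA-treated and LA-treated mice. In HYA-treated against LA-treated mice with single mice left out, 0 to 5 other peroxisomal genes (4 when control mouse 1 and 5 when control mouse 2 was left out) and 0 to 1 other mitochondrial genes (1 in both of these cases) were higher. Calls among all genes rose in these cases too. From 26 higher and 28 lower with all mice, they went to 138 and 86 without control mouse 1 and to 152 and 107 without control mouse 2.

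**Figure D5:**
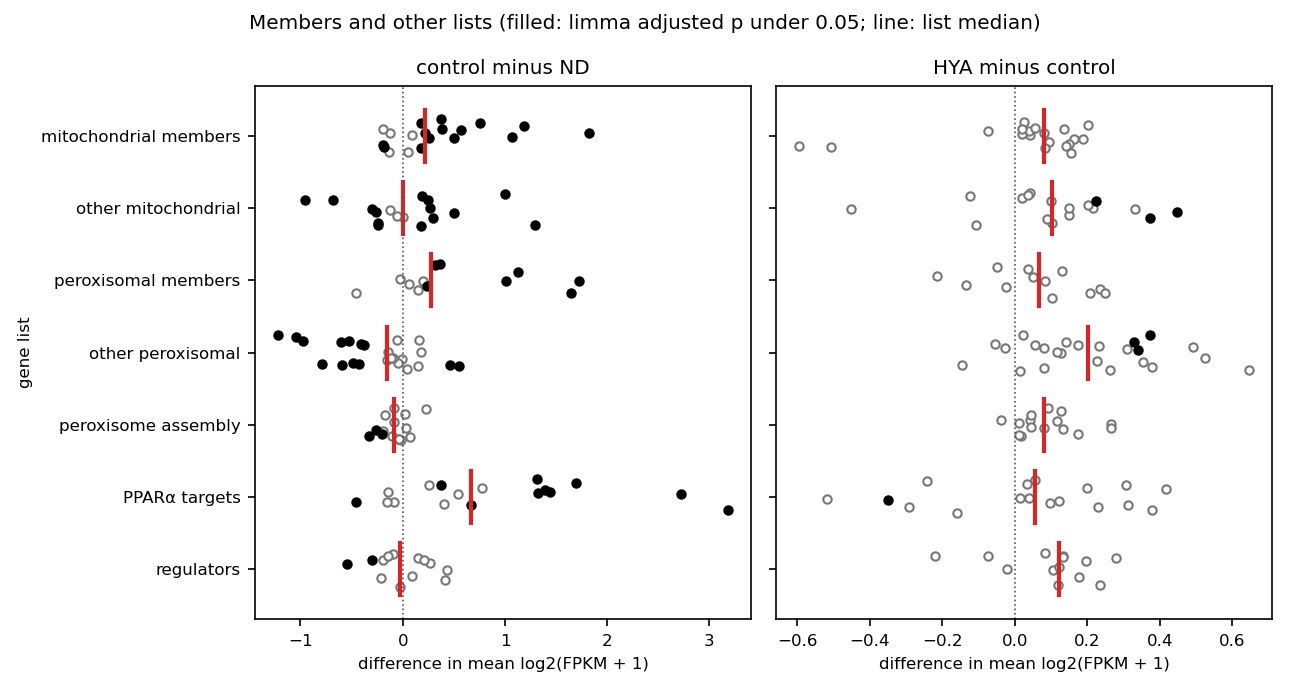
Each point is a gene of a list, placed at its difference in mean log2(FPKM + 1), filled where the adjusted p is under 0.05, with a red line at the median of the list. In the left panel 7 of 12 peroxisomal members are filled and all lie to the right of 0, and 11 of the 13 filled other peroxisomal genes lie to the left. In the right panel the filled points are 3 other mitochondrial genes, 3 other peroxisomal genes and 1 PPARα target.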

How the data were processed

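RNA was taken from the livers of 12 male mice, 3 in each of the ND, control, HYA and LA groups, as the labels give them. The authors deposited 1 table of FPKM values for 54532 genes, whose sums differ between mice, as TPM sums would not. The sums were 407652 to 429286 in ND-fed, 342146 to 368132 in control, 380803 to 393109 in HYA-treated and 352290 to 361523 in LA-treated mice. ND-fed and HYA-treated mice each overlapped with no other group, so the change from FPKM to TPM differs by diet. The labels name fastp, HISAT2 2.0.5, featureCounts 1.5.0-p3 and the build GRCm38, without saying whether strand was used. Whole fragments were recovered from the FPKM steps (99.953% of values whole within 0.02), and no 2 mice of a group agreed within sampling noise (chi-square of 8.95 to 24.1 per degree of freedom).

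The test was limma 3.58.1 in R 4.3.3, with trend, on log2(FPKM + 1) of all 12 mice, over 11083 genes whose mean reached 1 FPKM. Tests were two-sided, with Benjamini-Hochberg adjustment over all genes and intervals at 95%. The scripts were tested on simulated data. Medians and counts of lists are descriptions without a set test.

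The members and all lists were chosen with earlier results of these data known. Values in every mouse are given for the 6 members with the largest change past the test between control and ND-fed mice and, in each organelle, for the 3 members with the lowest p in HYA against control mice and the 2 with the highest mean FPKM. From the other lists the 3 genes with the lowest p in each of these comparisons could be named. Genes named beyond this, *Ppara*, *Dbp* and *Arntl* included, were chosen after their values were seen.

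Alternatives were median-ratio size factors, TPM, a pseudocount of 0.1, no filter, a filter at 0.1 FPKM, limma-voom on recovered fragments, only the 2 groups compared, a log2 difference above 1 as well, the replicate number as a block, each mouse left out, other groupings of the members and, chosen after seeing the data, a clock covariate. Promoters come from RefSeq (GRCm38.p6), and shared windows were counted in GENCODE M21 transcripts, in which 31 of 35 members have the table's coordinates.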

Additional observations from a re-analysis of the deposited data

How the results depend on the processing

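In control against ND-fed mice the count of members that rose, 21, was 18 to 27 over the alternatives with the same threshold, 18 to 21 with single mice left out, and 9 with a log2 difference above 1. The 27 was with TPM, where 4417 of all 13588 genes tested rose and 775 fell, against 1795 and 2115 of 11083 with FPKM. The count that fell, 2, was 0 with TPM, without a filter, with only the 2 groups compared and with a log2 difference above 1, and 0 to 3 with single mice left out (0 without ND mouse 2, ND mouse 3 or control mouse 1). With TPM the medians of mitochondrial and peroxisomal members were 0.456 and 0.514 in this comparison, −0.0442 and −0.053 in HYA against control, and 0.0155 and −0.0252 in HYA against LA. Among genes called in either unit, TPM turned the direction in control against ND for *Acadvl* (0.11), *Acaa2* (0.0414), *Etfa* (0.0554), *Scp2* (0.186), *Gnpat* (0.172), *Pex7* (0.202) and *Pex13* (0.0142), and among members called in neither it turned that of *Cpt2* (0.0967), *Etfb* (0.0395), *Acaa1a* (0.21) and *Eci2* (0.207). TPM also called *Acadm*, *Etfdh*, *Ehhadh*, *Abcd3* and *Acot8* higher. No filter ended the calls of *Slc25a20*, *Acaa2*, *Etfa*, *Acaa1b* and *Acot3*, and only the 2 groups compared those of *Slc25a20*, *Acads*, *Acaa2*, *Etfa* and *Hsd17b4*. TPM rescales all genes of a mouse together, by an amount that differed between diet groups (sums given above).

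In HYA against control mice the count that rose, 0, was 1 with the clock covariate and 0 to 2 with single mice left out (2 without control mouse 2), and the count that fell, 0, was 1 with TPM (*Hadhb*, −0.20). Among all genes, 408 of 13588 fell with TPM and 136 of 11083 with FPKM. With single mice left out, the mitochondrial and peroxisomal medians were 0.194 to 0.24 and 0.245 to 0.33 in control against ND, 0.0461 to 0.115 and 0.057 to 0.112 in HYA against control (lowest without control mouse 1, highest without control mouse 2), −0.0588 to −0.0215 and −0.0524 to 0.0102 in LA against control (highest without control mouse 2), and 0.0982 to 0.138 and 0.0569 to 0.141 in HYA against LA (lowest without LA mouse 1). No alternative called a member in LA against control or in HYA against LA. The cause of these changes was not tested.

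The labels do not say whether mice of the same replicate number belong together, and the values below do not settle it. Over 18 same-number pairs the correlation of deviations was −0.396 to 0.294 (3 over 0.1), and 6 of 12 mice correlated best with their own number. With the replicate number as a block, the members' counts were again 21 and 2 in control against ND and 0 in the other comparisons, while the other peroxisomal genes called higher were 6 rather than 3 in HYA against control and 6 rather than 0 in HYA against LA. Among all 11083 genes, 253 rather than 174 were then higher and 196 rather than 136 lower in HYA against control. In HYA against LA these counts were 146 rather than 26 and 112 rather than 28.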
